A study of Mus musculus with 6 samples.

Results

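The genes described here are 32 genes of smooth muscle cells and pericytes, fixed as a list of symbols and looked up by symbol in the deposited expression table. All 32 were among its 17256 genes, and all 32 passed the filter on low counts that left 13071 genes for testing. Levels were read from 6 RNA-seq libraries made from the epithelium of the antrum, the lower part of the stomach, in C57BL/6 mice. Every mouse had first received MNNG, an alkylating carcinogen, with a drug spelled Ranitine in the labels, for 20 weeks to bring on atrophic gastritis. The comparison group then had 2 weeks of vehicle (3 libraries), and the other group 2 weeks of PEEPA-P5 by gavage (3 libraries). No library from a mouse without gastritis was analysed here, and PEEPA-P5 is known only by its code name. Whether each library stands for its own mouse is not stated, and the p-values therefore reflect only library-to-library spread, part of which may be technical.

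Smooth muscle cells shorten when myosin, phosphorylated by myosin light chain kinase, pulls on filaments of smooth muscle actins that are anchored to dense bodies and, through desmin, to the cell's scaffold. Serum response factor and its coactivator myocardin switch on many of these genes through a short DNA element called the CArG box. In the stomach such cells form the outer muscle coat, the thin muscularis mucosae under the glands, strands between the glands and the walls of vessels, while pericytes wrap capillaries. None of them is an epithelial cell, so transcripts made only by them would come from beside or under the epithelium in the sampled tissue. Some of the listed genes are also made in other cell types, as described below for several. The cell source of these transcripts was not tested, so they cannot be read as a measure of tissue outside the epithelium alone.

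CArG boxes were looked for in the 250 bases before the annotated start of each gene, in RefSeq promoter sequences of build GRCm38.p6. Of the 32 genes 28 had an entry; Actg2, Myh11, Myocd and Tagln did not. A full CArG box (by name; the pattern reads alike on both strands, so a match covers both) stood in 3 of the 28 genes, Myl9, Dmd and Ldb3, or 10.7%, against 1.62% of the 27025 genes in the same table. A CArG box with 1 G or C in its core of A and T stood in 6 of the 28, or 21.4%, against 8.33% of all genes; that looser form was added after the strict search had been seen. Acta2 had it at 84 and 34 bases before the start. The promoters of 3 genes whose levels are described below are shown 5′ to 3′ in the direction of the gene, with the boxes in capitals (the loose form for Acta2, the strict form for Myl9 and Dmd). A match is a description of the sequence and says nothing about binding here.
Acta2 promoter, chr19:34255374-34255623, minus strand: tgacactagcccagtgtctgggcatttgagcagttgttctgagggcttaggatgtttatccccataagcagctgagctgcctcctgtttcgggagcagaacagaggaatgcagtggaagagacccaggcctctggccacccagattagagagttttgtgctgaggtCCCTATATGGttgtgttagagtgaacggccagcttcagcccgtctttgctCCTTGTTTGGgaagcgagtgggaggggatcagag
Myl9 promoter, chr2:156775214-156775463, plus strand: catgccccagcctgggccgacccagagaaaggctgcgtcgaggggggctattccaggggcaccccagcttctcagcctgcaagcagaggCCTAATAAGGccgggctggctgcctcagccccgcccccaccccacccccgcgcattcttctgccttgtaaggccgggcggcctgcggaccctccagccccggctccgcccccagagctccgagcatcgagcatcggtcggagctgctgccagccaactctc
Dmd promoter, chrX:82948620-82948869, plus strand: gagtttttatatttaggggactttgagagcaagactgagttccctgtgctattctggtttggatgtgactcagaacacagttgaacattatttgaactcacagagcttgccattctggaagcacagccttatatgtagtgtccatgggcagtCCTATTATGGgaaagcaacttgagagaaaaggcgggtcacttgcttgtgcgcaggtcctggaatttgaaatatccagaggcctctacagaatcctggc

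Most of the 32 genes had lower mean levels after PEEPA-P5, but the difference was carried unevenly by its 3 libraries and no gene passed the adjusted threshold. The log2 difference was below 0 in 27 of 32 genes, where 50.6% of all tested genes were below 0, and its median was -0.70, where the median of all tested genes was -0.0047. By edgeR's quasi-likelihood test 0 of 32 passed an adjusted p of 0.05 (0% of all genes did), and the smallest adjusted p among them was 0.412. At an unadjusted p under 0.05, 3 of 32 were lower (Dmd, Notch3 and Hspb6) and 0 higher, where 6.14% of all genes were lower and 5.94% higher. The groups did not overlap in 4 of 32 genes, all lower with PEEPA-P5, against 10.7% of all genes that were lower without overlap; 0 were higher without overlap, against 9.75% of all genes. DESeq2 called 0 of the 32 past the adjusted threshold (0.78% of all genes) and had 4 lower at an unadjusted p under 0.05 (6.59% of all genes). Limma-voom called 0 (0% of all genes) and had 2 lower at that level (5.81% of all genes).

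PEEPA-P5 3 stood apart. It was the lowest of the 6 libraries in 26 of 32 genes, where 31.4% of all tested genes had their lowest value there, and it lay below all 3 vehicle libraries in 28 of 32 (36.6% of all genes). PEEPA-P5 1 lay below all 3 vehicle libraries in 21 of 32 (29.3% of all genes). PEEPA-P5 2 did so in 5 of 32 (25.7% of all genes), was within the vehicle range in 18 and above it in 9 (24.6% of all genes). In the vehicle group, library 3 was the lowest of the 3 in 27 of 32 genes, and the share over all genes was not counted. Of the lists described below, gastric epithelium, nonmuscle relatives, smooth muscle signalling and fibroblast genes also had their lowest vehicle sum there. So did the lists of interstitial cells of Cajal, enteric glia and neurons, and striated muscle. Endothelial, other pericyte, leukocyte and mesothelial genes did not. Without PEEPA-P5 3 the median log2 difference was -0.23, 24 of 32 were below 0 (51.5% of all genes), and Dmd and Notch3 were lower at an unadjusted p under 0.05 (4.92% of all genes) and 0 higher (3.84% of all genes). Without both libraries numbered 3 there were 2 lower, Dmd and Kcnmb1 (4.48% of all genes), while Notch3 had an unadjusted edgeR p of 0.053. The count was also 2 without PEEPA-P5 1 (3.17% of all genes). Without PEEPA-P5 2 the median was -1.45 and 12 of 32 were lower at that level (6.85% of all genes). Without vehicle 3 only Dmd was (2.67% of all genes).

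**Figure D1:**
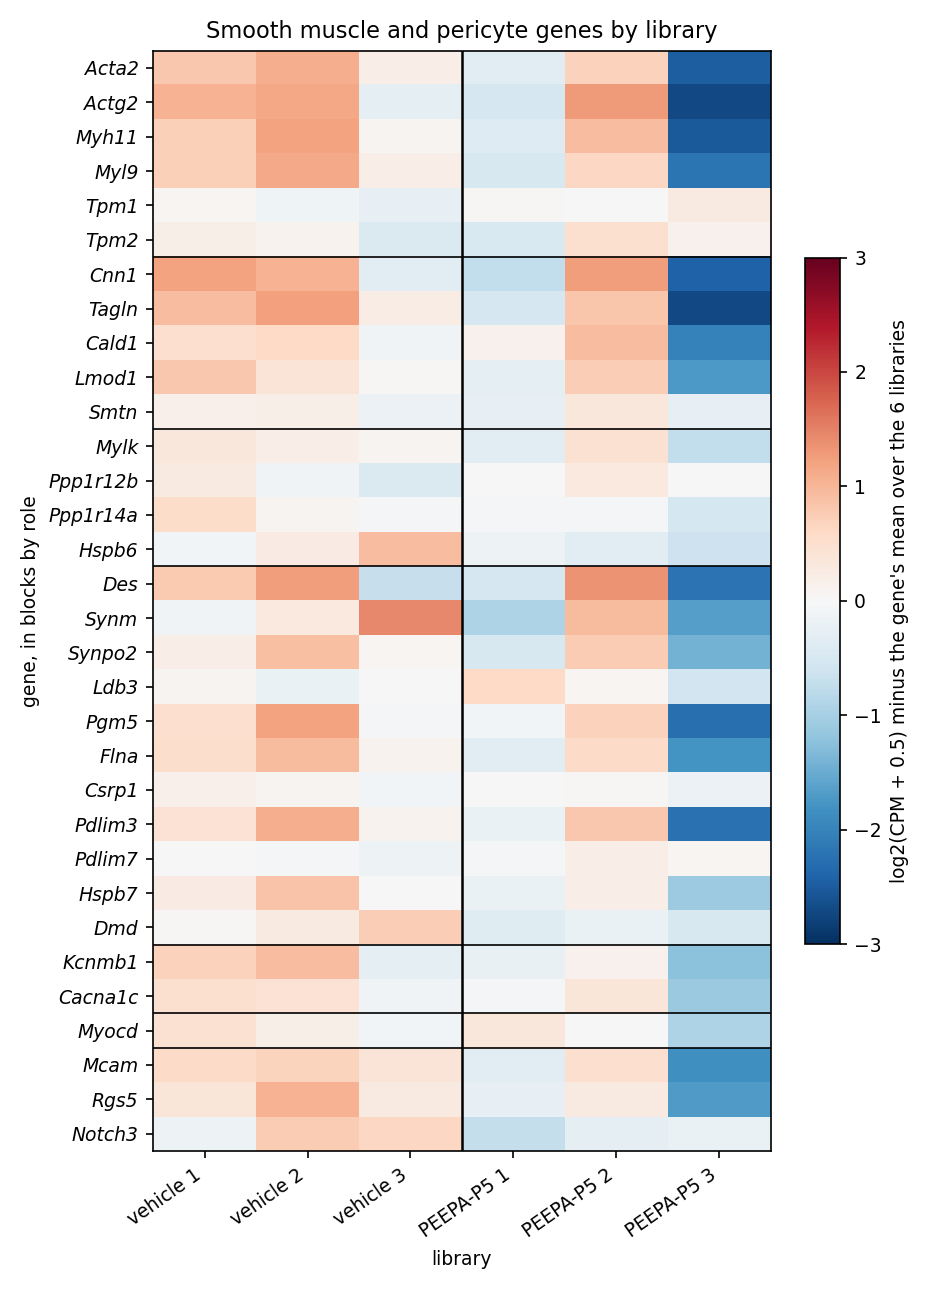
Each row is 1 of the 32 genes, in blocks by role from filament proteins at the top to pericyte genes at the bottom, and each column a library. Colour gives log2(CPM + 0.5) minus the gene's mean over the 6 libraries, and PEEPA-P5 3 is the bluest column, the lowest library, in 26 of 32 rows, while the rows of Tpm1, Csrp1 and Pdlim7 stay pale.

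Libraries carry the numbers 1 to 3 in either group, with no stated meaning, and over all tested genes same-numbered libraries deviated together from their group means. With that number as a block, 9 of 32 genes were lower at an unadjusted p under 0.05 (7.06% of all genes) and 0 higher. They were Acta2, Myh11, Myl9, Tagln, Flna, Dmd, Kcnmb1, Rgs5 and Notch3, and their adjusted p with the block was 0.364 in each. The median log2 difference with the block was -0.92. The block rested only on the shared deviations of same-numbered libraries, seen in these same data, so its p-values may be too small. Within the numbered pairs, 31 of 32 genes were lower with PEEPA-P5 in pair 1, 19 in pair 2 and 28 in pair 3, where 49.8%, 50.8% and 52.2% of all tested genes were. In all 3 pairs 19 of 32 were lower, where 24.5% of all tested genes were.

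Of the filament proteins, the smooth muscle actins Acta2 and Actg2 and the heavy chain Myh11 were below every vehicle library in PEEPA-P5 1 and PEEPA-P5 3, and PEEPA-P5 2 was not. Levels per library are given as CPM, counts relative to the TMM-scaled size of the library, in the order of libraries 1, 2 and 3. Acta2 (Entrez 11475), the actin of vascular smooth muscle and of myofibroblasts, was at 81.7, 99.6 and 53.8 CPM with vehicle and 37.2, 74.8 and 7.93 CPM with PEEPA-P5. Its log2 difference was -0.97 (SE 0.73, edgeR adjusted p = 0.588), and -0.48 (SE 0.40) without PEEPA-P5 3. PEEPA-P5 2 lay between vehicle 3 and vehicle 1, so the groups overlapped through that library. Actg2 (Entrez 11468), the actin of gut muscle, was at 26.2, 28.1 and 10.1 CPM with vehicle and 8.49, 30.7 and 1.48 CPM with PEEPA-P5. Here PEEPA-P5 2 was the highest of all 6 libraries, and the log2 difference was -0.66 (SE 0.96), or -0.13 without PEEPA-P5 3. Myh11 (Entrez 17880), the smooth muscle myosin heavy chain, was at 46.2, 64.9 and 29.6 CPM with vehicle and 21.2, 53.2 and 4.44 CPM with PEEPA-P5, with a log2 difference of -0.83 (SE 0.80).

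Myl9 (Entrez 98932), the regulatory light chain that the kinase phosphorylates, followed the same order of libraries as Acta2. It was at 28, 37.6 and 19.4 CPM with vehicle and 11.9, 26.2 and 3.29 CPM with PEEPA-P5, and its log2 difference was -1.03 (SE 0.69). The tropomyosins, which lie along actin filaments in muscle and in most other cells, did not share this pattern. Tpm1 (Entrez 22003) was at 1063, 939 and 870 CPM with vehicle and 1057, 1026 and 1231 CPM with PEEPA-P5, with its highest value in PEEPA-P5 3. Tpm2 (Entrez 22004) was at 39.5, 37.6 and 25.7 CPM with vehicle and 25.6, 49.1 and 38.5 CPM with PEEPA-P5. Their log2 differences were 0.21 and 0.14, with standard errors of 0.13 and 0.26, and neither passed an unadjusted p of 0.05.

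On the length-corrected TPM scale, which allows genes to be compared, Tpm1 alone made up 54.6% to 75.7% of the summed level of the 32 genes. Its mean was 692 TPM over the 6 libraries, against 176 TPM for Csrp1, 41.3 TPM for Pdlim7 and 28.4 TPM for Tagln. Acta2 and Myl9 averaged 26.2 TPM each, Actg2 17.1 TPM and Myh11 7.94 TPM. Without Tpm1, Csrp1 and Pdlim7, chosen after their values were seen, the other 29 genes summed to 267, 348 and 159 TPM in vehicle 1, 2 and 3 and to 126, 274 and 57.3 TPM in PEEPA-P5 1, 2 and 3. The lowest sum was that of PEEPA-P5 3, and PEEPA-P5 2 exceeded vehicle 1 and vehicle 3.

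The filament regulators Tagln and Cnn1 varied most between libraries within this role. Tagln (Entrez 21345), or SM22, an actin-bundling protein of the calponin family, was at 52.3, 64.3 and 31.6 CPM with vehicle and 19.1, 48.5 and 3.70 CPM with PEEPA-P5. Cnn1 (Entrez 12797), calponin, which restrains the actomyosin ATPase, was at 18.2, 16.3 and 5.89 CPM with vehicle and 4.34, 18.7 and 1.01 CPM with PEEPA-P5. For both genes PEEPA-P5 1 and PEEPA-P5 3 lay below every vehicle library, and PEEPA-P5 2 did not; for Cnn1 it was the highest of the 6. Their log2 differences were -1.05 and -0.74, with standard errors of 0.81 and 0.97.

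Cald1 (Entrez 109624), caldesmon, which is made in muscle and nonmuscle forms that gene-level counts do not separate, was at 19.3, 20.9 and 12.5 CPM with vehicle and 14.9, 26.1 and 2.96 CPM with PEEPA-P5. Its log2 difference of -0.26 became 0.22 without PEEPA-P5 3. Smtn (Entrez 29856), smoothelin, was at 32.4, 32.6 and 25.4 CPM with vehicle and 24.2, 36.9 and 24.4 CPM with PEEPA-P5, so the libraries of both groups covered nearly one range. Lmod1, leiomodin, an actin nucleator of smooth muscle, had a mean of 0.945 TPM and ranged from 0.538 CPM in PEEPA-P5 3 to 5.52 CPM in vehicle 1, with a log2 difference of -0.62.

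Among the regulators of myosin phosphorylation, Hspb6 was the member whose groups did not overlap. Hspb6 (Entrez 243912), or HSP20, a small heat shock protein linked to relaxation of smooth muscle, was at 5.64, 7.18 and 11.8 CPM with vehicle and 5.30, 4.61 and 3.70 CPM with PEEPA-P5. The gap between the groups was small, from 5.64 in vehicle 1 to 5.30 in PEEPA-P5 1. The log2 difference was -0.85 (SE 0.32, edgeR adjusted p = 0.412). It was -0.72 without PEEPA-P5 3, -0.80 with the block and -0.37 without both libraries numbered 3. Hspb6 passed an unadjusted p of 0.05 by edgeR with all 6 libraries and no block, and did not in these other edgeR fits.

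The kinase gene Mylk (Entrez 107589) was at 29.4, 26.8 and 24.7 CPM with vehicle and 18.1, 32.2 and 13.6 CPM with PEEPA-P5. Ppp1r12b (Entrez 329251), a targeting subunit of the phosphatase that opposes the kinase, was at 24.9, 18.9 and 15.0 CPM with vehicle and 20.2, 25.1 and 20.4 CPM with PEEPA-P5. Both overlapped, with log2 differences of -0.34 and 0.16. Ppp1r14a (Entrez 68458), the phosphatase inhibitor CPI-17, was low, at 1.67, 1.08 and 0.961 CPM with vehicle and 0.964, 0.934 and 0.538 CPM with PEEPA-P5, or 29, 20 and 15 against 16, 16 and 8 counts.

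Of the genes for intermediate filaments and anchorage, Dmd had the smallest p of all 32. Dmd (Entrez 13405), dystrophin, which ties the cytoskeleton to the membrane, was at 10.8, 12.8 and 17.7 CPM with vehicle and 8.07, 9.05 and 7.39 CPM with PEEPA-P5. Every PEEPA-P5 library lay below every vehicle library, and PEEPA-P5 3 was only slightly below the other two of its group. The log2 difference was -0.75 (SE 0.22, edgeR adjusted p = 0.412), -0.68 without PEEPA-P5 3 and -0.72 with the block, and it passed an unadjusted p of 0.05 in all 3 fits. Without both libraries numbered 3 the log2 difference shrank to -0.46, still at an unadjusted p under 0.05. DESeq2 gave an adjusted p of 0.151. The dystrophin gene has several promoters and shorter products outside muscle, which these gene-level counts do not separate. Vehicle 3 was the highest library for Dmd, Hspb6 and Synm, although it was the lowest vehicle library for 27 of the 32 genes.

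Des (Entrez 13346), desmin, the muscle intermediate filament, was at 20.6, 28.9 and 7.17 CPM with vehicle and 8.25, 31.1 and 2.15 CPM with PEEPA-P5. PEEPA-P5 2 was the highest library and vehicle 3 lay below PEEPA-P5 1, so the groups were mixed. The log2 difference was -0.45 (SE 0.95), and 0.06 without PEEPA-P5 3. Flna (Entrez 192176), filamin A, an actin crosslinker of many cell types, was at 78.2, 104 and 57.6 CPM with vehicle and 42.6, 80.0 and 15.1 CPM with PEEPA-P5, with a log2 difference of -0.80 (SE 0.58). Pdlim3 (Entrez 53318), an adaptor of actinin-rich structures, was at 5.29, 8.69 and 4.10 CPM with vehicle and 3.25, 7.01 and 0.403 CPM with PEEPA-P5. It had 6 counts in PEEPA-P5 3, against 54 to 161 in the other 5 libraries.

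Csrp1 and Pdlim7, LIM-domain proteins made in many cell types, were nearly level. Csrp1 (Entrez 13007) was at 304, 288 and 256 CPM with vehicle and 274, 278 and 243 CPM with PEEPA-P5. Pdlim7 (Entrez 67399) was at 50.4, 49.5 and 45.6 CPM with vehicle and 49.7, 58.2 and 53.1 CPM with PEEPA-P5. Their log2 differences were -0.09 and 0.15, with standard errors of 0.11 and 0.10, the smallest standard errors of the 32.

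The other 5 genes of this role averaged under 1 TPM. They were Synm and Synpo2, which encode synemin and synaptopodin-2 of desmin filaments and Z-discs, Ldb3 and Pgm5, which encode a Z-disc adaptor and an adhesion protein, and Hspb7, a small heat shock protein. Their values ran from 0.0672 CPM, 1 count, for Hspb7 in PEEPA-P5 3 to 10.1 CPM for Synm in vehicle 3. Log2 differences were -0.89 for Synm, -0.64 for Synpo2, -0.86 for Pgm5, -1.12 for Hspb7 and 0.20 for Ldb3, and none of these passed an unadjusted p of 0.05. Pgm5 had the widest spread of the 32 genes, 29.5-fold between vehicle 2 and PEEPA-P5 3, where its count was 4.

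The channel genes and the coactivator gene were near the limit of these libraries. Kcnmb1, the beta subunit of the large-conductance potassium channel, had the largest negative log2 difference of the 32, -1.20 (SE 0.69), from 37, 48 and 13 counts with vehicle and 15, 22 and 3 with PEEPA-P5. Cacna1c, the L-type calcium channel through which calcium enters these cells, had 6 to 40 counts per library and a log2 difference of -0.58. Myocd, myocardin, had 20, 16 and 10 counts with vehicle and 17, 12 and 2 with PEEPA-P5, and a log2 difference of -0.50 (SE 0.67). Counts this low leave a wide range of differences for these 3 genes.

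Of the 3 genes listed for pericytes and the vessel wall, Rgs5 and Notch3 had groups that did not overlap. Rgs5 (Entrez 19737), a regulator of G-protein signalling that marks pericytes, was at 32.1, 51.6 and 30.2 CPM with vehicle and 20.7, 29.9 and 7.33 CPM with PEEPA-P5. Vehicle 3 and PEEPA-P5 2 were close, and the log2 difference was -0.97 (SE 0.49, edgeR adjusted p = 0.463), or -0.58 without PEEPA-P5 3. Notch3 (Entrez 18131), a Notch receptor of mural cells, was at 3.05, 6.2 and 5.57 CPM with vehicle and 1.93, 2.74 and 2.96 CPM with PEEPA-P5. Its lowest library was PEEPA-P5 1 and not PEEPA-P5 3. The log2 difference was -0.96 (SE 0.36, edgeR adjusted p = 0.412), and -1.07 without PEEPA-P5 3. Mcam (Entrez 84004), CD146, an adhesion molecule of mural and endothelial cells, was at 8.17, 8.79 and 7.17 CPM with vehicle and 4.22, 7.82 and 1.14 CPM with PEEPA-P5, and PEEPA-P5 2 lay within the vehicle range.

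**Figure D2:**
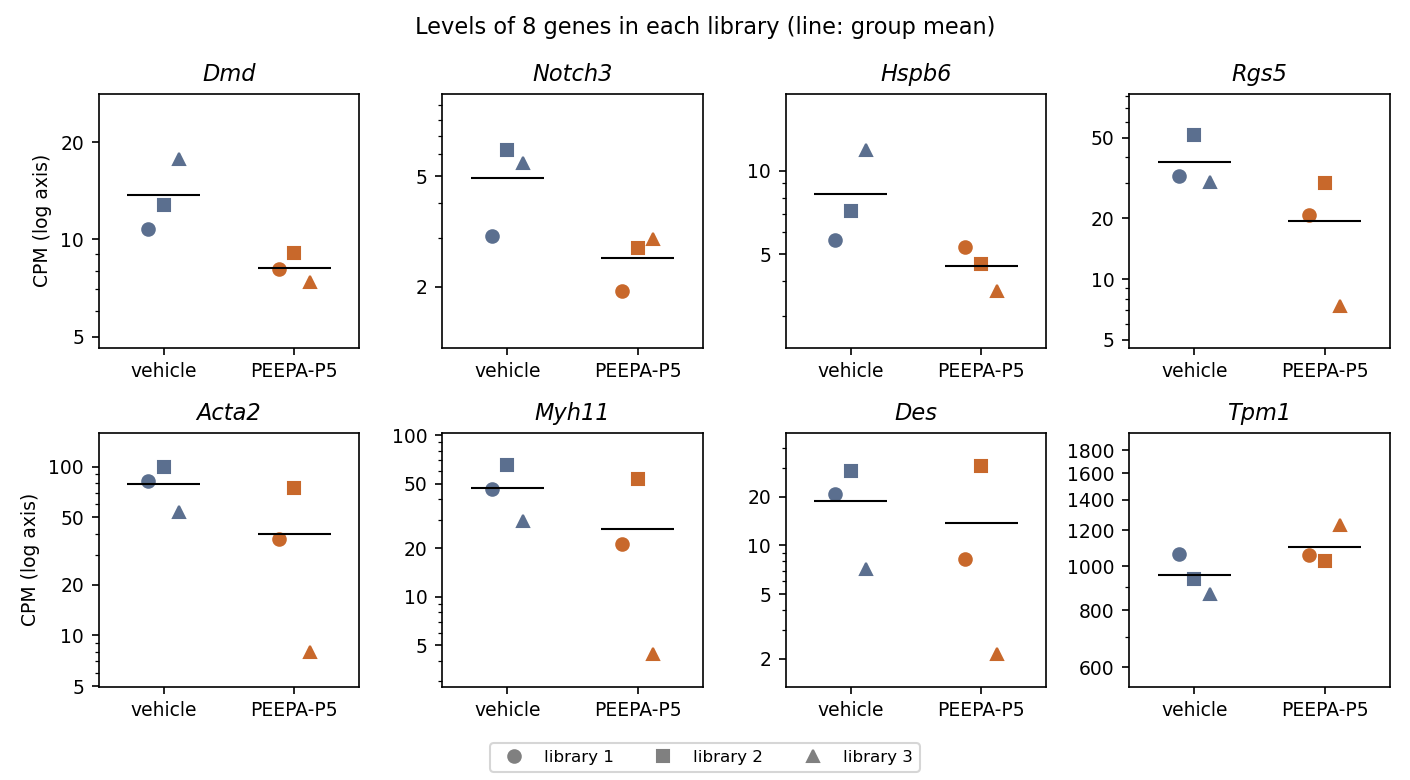
Each panel shows 1 gene, with CPM on a log axis, the 3 libraries of each group as points whose shape gives the library number, and the group mean as a line. In the upper row (Dmd, Notch3, Hspb6, Rgs5) the groups do not overlap; in the lower row PEEPA-P5 2 overlaps the vehicle libraries for Acta2, Myh11 and Des, and Tpm1 spans 870 to 1231 CPM.

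The 32 genes differed in how far they spread over the 6 libraries. The ratio of the highest to the lowest CPM had a median of 7.86 over the 32 genes, against 1.58 over all tested genes. It was 10 or more in 13 genes and at most 2 in 6 genes. Those 6 were Tpm1, Csrp1, Pdlim7, Smtn, Ppp1r12b and Tpm2, at 1.42, 1.25, 1.28, 1.53, 1.67 and 1.92. Within the vehicle group alone the ratio had a median of 1.82 and reached 4.03 for Des. Over the 6 libraries, Col1a1, Col1a2, Col3a1 and Dcn of the fibroblast list were at ratios of 14.3, 12.2, 15.95 and 24.9. Pecam1, Cdh5, Kdr and Tek of the endothelial list were at 5.83, 24.6, 15.8 and 13.0. Wide spread was thus not particular to the 32 genes, and the comparison with all genes was not matched for level. Levels of different members kept no fixed ratio: Actg2 over Acta2, in TPM, was 0.704, 0.619 and 0.413 with vehicle and 0.50, 0.90 and 0.407 with PEEPA-P5. Rgs5 over Acta2 was 0.237, 0.315 and 0.339 with vehicle and 0.336, 0.241 and 0.559 with PEEPA-P5, so PEEPA-P5 3 was lower in Acta2 than in Rgs5 relative to the other libraries.

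**Figure D3:**
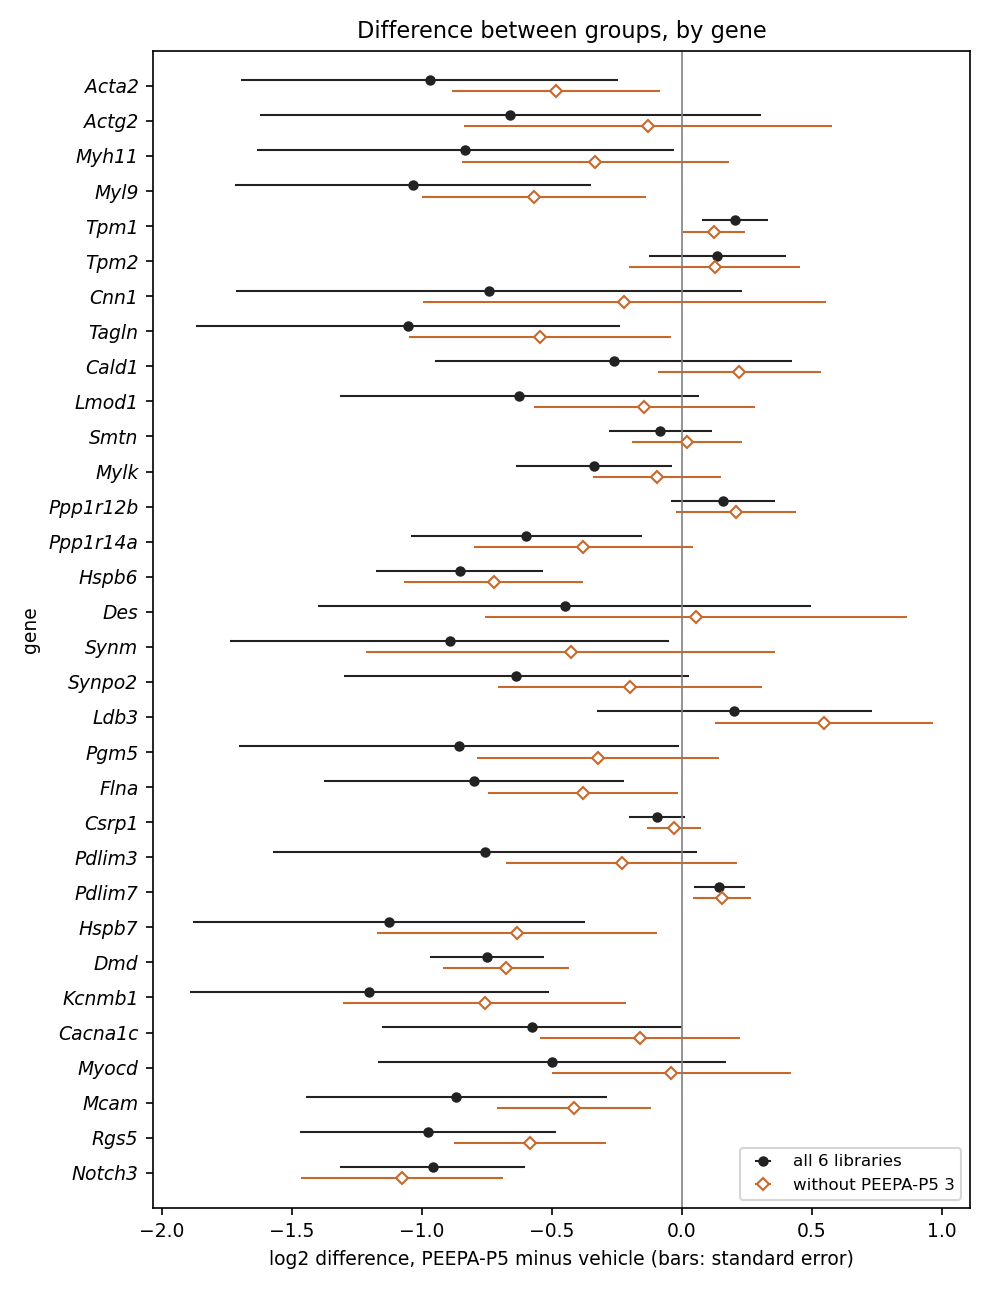
The horizontal axis is the log2 difference, PEEPA-P5 minus vehicle, with bars of 1 standard error, for each of the 32 genes; filled circles use all 6 libraries and open diamonds leave out PEEPA-P5 3. Without that library most points move toward 0 (median -0.23 against -0.70), while Dmd, Hspb6 and Notch3 stay near their first position.

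Other genes of smooth muscle signalling were 35 in the table, of which 31 were tested. Of these, 22 were below 0 and 9 above, with a median log2 difference of -0.52 (-0.23 without PEEPA-P5 3), and at an unadjusted p under 0.05 there were 2 lower and 1 higher, where 6.14% of all genes were lower and 5.94% higher. Srf, serum response factor, had a log2 difference of 0.18, and its coactivators Mrtfa and Mrtfb had -0.11 and -0.28. Rhoa, the GTPase that sensitises the filaments to calcium, had 0.06. Gata6, a transcription factor that gastric epithelium also makes, was at 90.9, 102 and 105 CPM with vehicle and 77.3, 73.4 and 90.5 CPM with PEEPA-P5, without overlap (log2 difference -0.30, edgeR adjusted p = 0.412). Chrm3, the muscarinic receptor of gut muscle and glands, was at 5.35, 11.3 and 9.93 CPM with vehicle and 5.54, 5.66 and 4.71 CPM with PEEPA-P5, which overlapped (log2 difference -0.74). Pde5a, the phosphodiesterase that removes cGMP, was at 30.7, 25.9 and 17.5 CPM with vehicle and higher in every PEEPA-P5 library, at 35.6, 32.4 and 36.0 CPM (log2 difference 0.49, edgeR adjusted p = 0.412).

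The nonmuscle relatives of the filament genes, which every cell uses to build its cortex, went the other way in most cases. Of 14 tested, 10 were above 0 and 4 below, with a median log2 difference of 0.30, and 5 were higher and 1 lower at an unadjusted p under 0.05 (5.94% and 6.14% of all genes). The 5 were Actb, Actg1, Myh14, Myl6 and Myl12b, at log2 differences of 0.56, 0.33, 0.59, 0.33 and 0.29, and the lower one was Cnn3, at -2.28. Actb was at 1939, 1868 and 1330 CPM with vehicle and 2319, 2196 and 3060 CPM with PEEPA-P5, and its groups did not overlap. Without PEEPA-P5 3 there were 1 higher and 0 lower (3.84% and 4.92% of all genes). Myh9 and Myh10, nonmuscle myosin heavy chains, had log2 differences of -0.03 and -0.54. In TPM, Acta2 over Actb was 0.0302, 0.0383 and 0.029 with vehicle and 0.0115, 0.0245 and 0.00186 with PEEPA-P5.

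A list of 10 further pericyte genes had 8 tested members, all 8 below 0 (50.6% of all tested genes). Their median log2 difference was -1.03 (-0.61 without PEEPA-P5 3). At an unadjusted p under 0.05 there was 1 lower (6.14% of all genes), and 3 without PEEPA-P5 3 (4.92% of all genes). Pdgfrb and Cspg4, classical pericyte genes, had log2 differences of -0.85 and -0.32, and the potassium channel subunits Abcc9 and Kcnj8 had -1.76 and -1.84 (edgeR adjusted p of 0.428 and 0.414). The lower one was Vtn, vitronectin, at 2.76, 3.62 and 7.62 CPM with vehicle and 0.241, 1.46 and 0 CPM with PEEPA-P5 (edgeR adjusted p = 0.412), or 4, 25 and 0 counts. The summed level of these 10 genes was 7.70 to 12.7 TPM with vehicle and 0.55 to 6.92 TPM with PEEPA-P5.

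Summed markers of endothelium, fibroblasts, leukocytes, interstitial cells of Cajal and enteric glia and neurons were lowest in PEEPA-P5 3, the library where most muscle genes were lowest too. The order of the other libraries differed between these lists. In vehicle 1, 2 and 3, endothelial genes summed to 23.4, 35.9 and 26.2 TPM, and fibroblast genes to 172, 221 and 87.2 TPM. Of all tested genes 50.6% had a log2 difference below 0. The summed level of 10 endothelial genes was 23.4 to 35.9 TPM with vehicle and 6.87 to 25.5 TPM with PEEPA-P5, lowest in PEEPA-P5 3, and all 9 tested members were below 0, with a median log2 difference of -0.90 (-0.50 without PEEPA-P5 3). Pecam1, Cdh5, Kdr and Tek were at log2 differences of -0.87, -1.47, -0.90 and -1.19. Tie1, at -1.33, was lower at an unadjusted p under 0.05 (6.14% of all genes). For 10 fibroblast genes the sums were 87.2 to 221 TPM with vehicle and 18.2 to 162 TPM with PEEPA-P5, all 10 were below 0, and the median was -0.60, or -0.09 without PEEPA-P5 3. The collagen genes Col1a1, Col1a2 and Col3a1 were at -0.50, -0.32 and -0.83, and Dcn, decorin, was at -1.26. For 8 leukocyte genes the sums were 14.2 to 23.0 and 4.39 to 22.2 TPM, with 4 of 6 tested genes below 0, and Ptprc, Cd68, Adgre1 and Csf1r were at -0.91, 0.01, -0.22 and -0.74. Genes of interstitial cells of Cajal summed to 25.1 to 39.5 and 21.3 to 25.0 TPM, with 3 of 4 tested genes below 0. Kit, also a gene of mast cells, was at -2.54 and lower at an unadjusted p under 0.05 (6.14% of all genes). Its levels were 7.30, 13.3 and 29.9 CPM with vehicle and 2.47, 5.72 and 0.403 CPM with PEEPA-P5. Without both libraries numbered 3 its log2 difference was -1.32. Ano1, Etv1 and Gucy1b1 were at -0.16, 0.11 and -0.73. Ano1 made up most of the summed level of this list. It was lowest in vehicle 3, at 18.7 TPM, and not in PEEPA-P5 3, at 21.0 TPM. Genes of enteric glia and neurons summed to 1.67 to 5.40 and 0.67 to 3.46 TPM, with 2 of 3 tested genes below 0; S100b was at a log2 difference of 0.37, and Sox10 and Gfap, not tested, had at most 5 counts in any library. The part of these cells in the differences of the muscle genes was not tested, and in bulk tissue fewer cells of a type cannot be told apart from less RNA per cell.

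The defining genes of gastric epithelium were high throughout. Tff1, Gkn1, Muc5ac and 7 further epithelial genes summed to 302220 to 351020 TPM with vehicle and 354750 to 401430 TPM with PEEPA-P5, with all 10 above 0 at a median log2 difference of 0.30, and PEEPA-P5 3 was the highest library. Of all tested genes 50.6% were below 0. Tff1, Gkn1, Gkn2 and Muc5ac were at log2 differences of 0.35, 0.31, 0.26 and 0.29. Gkn1, Muc5ac, Epcam, Krt8 and Krt19 were higher at an unadjusted p under 0.05 (5.94% of all genes). Without PEEPA-P5 3 the median of these epithelial genes was 0.22, and 2 were higher at that level, Muc5ac and Krt19 (3.84% of all genes). All 32 muscle and pericyte genes together summed to 888 to 1332 TPM and 955 to 1213 TPM. The table held 6 striated muscle genes, of which only Mb was tested, at a log2 difference of 1.07 (edgeR adjusted p = 0.571). Acta1 had 2 to 24 counts, and Actc1, Ckm, Tnnt3 and Mybpc1 had at most 5 counts in any library. The mesothelial genes Msln, Upk3b and Lrrn4 were all under the filter and summed to 0.03 to 0.35 TPM in any library. Total counts were 16388852 to 16903559 per library. PEEPA-P5 3 had the fewest genes with a count, 14908 against 15530 to 15960 in the other libraries, and the lowest TMM factor, 0.9026 against 0.9536 to 1.1037; their part in its low values was not tested.

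**Figure D4:**
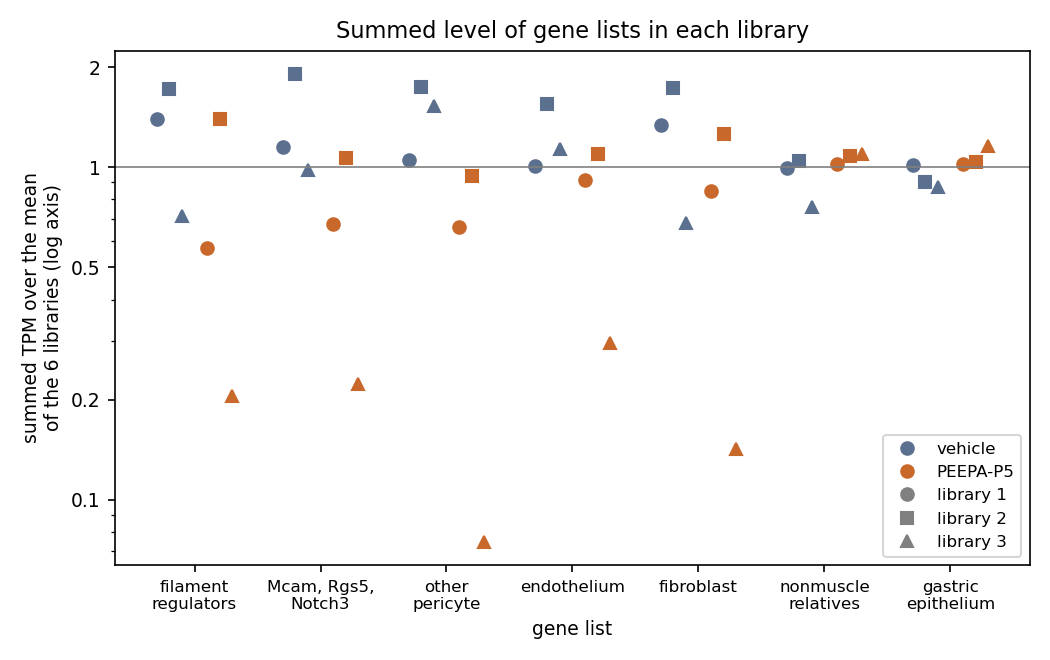
The vertical axis, on a log scale, is the summed TPM of a gene list in each library divided by its mean over the 6 libraries; colour gives the group and shape the library number. PEEPA-P5 3 is lowest for the filament regulators, for Mcam, Rgs5 and Notch3, and for other pericyte, endothelial and fibroblast genes, and highest for gastric epithelium.

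Over all genes the split of calls depended on scaling while that of the 32 did not. At an unadjusted p under 0.05 there were 802 lower and 776 higher genes with TMM factors, 959 and 537 with upper-quartile factors, and 1015 and 313 with total counts alone. Among the 32 genes the counts were 3 lower and 0 higher with each of these.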

How the data were processed

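RNA-seq was read from 6 libraries of mouse antrum epithelium. Bowtie2 2.2.5, RSEM 1.2.12 and build mm9 are named in the submitters' processing notes; strandedness was not given in the sources used here. Reads of genes that overlap on opposite strands may therefore be mixed. The deposited values are, per the file headers, an expected count (an estimate, not normalized), TPM and FPKM; FPKM and group means were not used. Of the expected counts 9.82% were not whole, and all were rounded before testing.

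Counts were tested with edgeR 4.0.16 (R 4.3.3; robust quasi-likelihood test, TMM factors, its expression filter, no covariates), with Benjamini-Hochberg adjustment over all 13071 tested genes. Standard errors are the log2 difference divided by the square root of the F statistic. DESeq2 1.42.0, limma 3.58.1 (voom, and trend on log2 TPM plus 1 or plus 0.1), other scaling and filters, the replicate block and left-out libraries were alternatives. At most 2.05% of the 31-base stretches of any of the 32 genes occurred in other genes' GENCODE transcripts (Hspb6).

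Deviations from group means correlated at 0.254, 0.354 and 0.234 between libraries of like number 1, 2 and 3. Between libraries of unlike number the correlations ran from -0.355 to 0.167. The block used the number in the labels, which do not say that it marks a pair. The 32 genes and the 11 other lists (122 entries, 119 in the table, 5 of them through older symbols) were chosen with earlier results of these data known. Members with a mean of 1 TPM or more are given per library. From the other lists the text names the first 4 genes in written order and those at an unadjusted p under 0.05; 1 gene that this rule takes is not reported here. Promoters are from GRCm38.p6, not the authors' build. No molecular identifiers are described, and the standard errors rest on the spread between libraries as well as on counting error.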

Additional observations from a re-analysis of the deposited data

How the results depend on the processing

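No member passed the adjusted threshold under any alternative run. The count of members lower at an unadjusted p under 0.05 was 3; it was 9 with the replicate block. Leaving out single libraries gave 1 (without vehicle 3) to 12 (without PEEPA-P5 2). The cause of these shifts was not tested. The block left the count of adjusted calls at 0. The median log2 difference of the members stayed below 0 throughout, from -1.45 without PEEPA-P5 2 to -0.23 without PEEPA-P5 3, and was -0.41 without both libraries numbered 3. Direction changed in 7 members when libraries were left out, each time at an unadjusted p of 0.504 or more. Over those fits the log2 difference ran from -0.10 to 0.35 for Tpm2, from -0.97 to 0.22 for Cald1, from -0.31 to 0.026 for Smtn, from -0.00057 to 0.37 for Ppp1r12b, from -1.85 to 0.056 for Des, from -2.32 to 0.21 for Synm and from -0.31 to 0.58 for Ldb3. Without PEEPA-P5 3, Cald1, Smtn and Des changed sign; without PEEPA-P5 1, Smtn and Ldb3; without vehicle 3, Tpm2 and Ppp1r12b; without PEEPA-P5 2, Tpm2. Without both libraries numbered 3, Tpm2 was at -0.040, Cald1 at 0.030 and Synm at 0.21. With limma-trend on log2(TPM + 0.1), Ldb3 was at -0.044. At 1 CPM in 3 or more libraries 29 members were left. Low counts limit Hspb7, Myocd, Ldb3, Ppp1r14a and the channel genes.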
